A study of Mus musculus with 12 samples.

Results

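Interferon-stimulated effector genes encode the proteins with which a cell resists viruses once type I interferon has been sensed. A set of 36 such mouse genes was followed here by name, from the IFIT proteins, Isg15 and Rsad2 to the residents of PML nuclear bodies, leaving out the interferon-inducible GTPases other than Mx1 and Mx2, the OAS family, the RNA and DNA sensors and the IRF and STAT factors. Probes were matched to 30 of the 36, all 30 passed the detection filter and were tested among 19318 genes and transcripts, and no probe was matched for Mx1, Mx2, Samd9l, Herc6, Ddx60 and Dtx3l. The values come from BV2 cells, an immortalised mouse microglial line, profiled on one-colour microarrays in 4 groups of 3 arrays each. Cells received 100 ng/ml LPS together with 20 µM curcumin, 100 ng/ml LPS alone, or 20 µM curcumin alone, each for 6 h, or were left untreated. LPS is the bacterial cell wall component sensed by Tlr4, and curcumin is a plant polyphenol from turmeric. All 4 groups share the one cell line and no vehicle is named for the untreated cells. The labels do not say whether replicates were separate cultures, so the p-values measure the spread between these samples, which may be technical. The number of arrays limits the precision.

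Microglia and macrophages sense LPS through Tlr4, whose adaptor Ticam1 (TRIF) activates Tbk1 and Irf3 and switches on interferon beta. Secreted interferon then acts back on its receptor, Ifnar1 with Ifnar2, and the kinases Jak1 and Tyk2 phosphorylate Stat2, which joins Irf9 in a complex that binds the interferon-stimulated response element (ISRE) in the promoters of the genes described here. The proteins bind viral RNA, conjugate Isg15 to other proteins, poison nucleotide pools, tether virions at the cell surface or change chromatin and signalling.

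Promoter windows were read from RefSeq (build GRCm38.p6), running from 250 bases before to 50 bases after each annotated start, and were found for 29 of the 36 genes. The core of the ISRE, searched as GAAA followed by any 2 bases and again GAAA, on both strands with overlapping matches allowed, was present in at least 1 window of 10 of these 29 genes (34.5%), against 3.99% of all 27025 genes with a window. The 10 were Isg15, Ifit1, Ifit3, Rsad2, Apol9b, Bst2, Slfn5, Trim21, Trim30a and Ddx60. At least 2 matches in a window were found in 7 of them, against 0.266% of all genes. The windows of Isg15, Ifit1, Ifit3 and Rsad2 are printed because these 4 genes, among those with a match, kept the highest levels above curcumin alone when LPS and curcumin were combined. Capitals mark the ISRE core matches, and each sequence runs 5′ to 3′ on the strand of its gene.
Isg15, chr4:156200769-156201068, minus strand: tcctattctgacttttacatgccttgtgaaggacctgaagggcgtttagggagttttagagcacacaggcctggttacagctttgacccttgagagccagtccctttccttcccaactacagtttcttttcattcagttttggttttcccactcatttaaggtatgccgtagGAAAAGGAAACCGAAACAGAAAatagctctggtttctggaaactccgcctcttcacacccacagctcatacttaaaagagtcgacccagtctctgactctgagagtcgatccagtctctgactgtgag
Ifit1, chr19:34640639-34640938, plus strand: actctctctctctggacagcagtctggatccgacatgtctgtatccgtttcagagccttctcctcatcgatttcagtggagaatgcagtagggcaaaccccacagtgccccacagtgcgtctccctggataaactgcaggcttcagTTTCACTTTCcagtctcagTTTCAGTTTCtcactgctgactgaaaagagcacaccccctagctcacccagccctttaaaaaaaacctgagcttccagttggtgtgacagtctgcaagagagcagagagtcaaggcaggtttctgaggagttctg
Ifit3, chr19:34583279-34583578, plus strand: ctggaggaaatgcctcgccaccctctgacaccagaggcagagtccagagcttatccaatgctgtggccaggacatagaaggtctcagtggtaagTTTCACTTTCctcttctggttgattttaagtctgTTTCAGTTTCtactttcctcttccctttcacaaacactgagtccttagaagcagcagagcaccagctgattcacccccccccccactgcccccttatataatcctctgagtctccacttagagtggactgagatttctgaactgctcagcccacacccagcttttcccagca
Rsad2, chr12:26456403-26456702, minus strand: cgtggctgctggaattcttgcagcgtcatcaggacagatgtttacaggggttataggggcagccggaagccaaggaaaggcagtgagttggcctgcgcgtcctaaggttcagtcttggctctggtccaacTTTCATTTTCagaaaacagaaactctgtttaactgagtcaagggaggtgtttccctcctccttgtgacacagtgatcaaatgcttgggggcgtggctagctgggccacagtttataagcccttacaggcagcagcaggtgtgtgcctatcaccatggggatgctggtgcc
In Isg15 the 3 matches overlap one another and cover bases 173 to 194 of the window. Ifit1 and Ifit3 hold 2 separate matches each, and Rsad2 holds 1, all read on the opposite strand. A match describes these letters and is no evidence of binding.

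Every level below is the log2 signal of 1 probe per gene minus the 75th percentile of its array, so 0 is the level of a fairly bright spot and levels are compared within a gene only. Differences are log2 differences of group means ± SE with n = 3 arrays a group, and a gene was called higher or lower at an adjusted p below 0.05 in limma over all genes tested. Each of the 3 slides held 1 array of every group, and differences within slides 1, 2 and 3 are given beside the means. The share of spots well above background ran between 56.7% and 64.6%, and no spot was saturated. Of 12 microglia and macrophage markers, 11 were matched and 9 were well above background on all 12 arrays, while Gfap, Aqp4, Snap25, Map2, Cdh5 and Siglech were above it on none. One array stood apart by its correlation over the genes tested that had a value on every array. The mean r of LPS+curcumin replicate 1 was 0.982 to LPS and 0.950 to curcumin. Replicates 2 and 3 gave 0.940 and 0.923 to LPS but 0.984 and 0.985 to curcumin. Counts and medians that involve the LPS+curcumin group are therefore given with and without replicate 1. Shares of all genes called are given for these fits and for the replicate number entered as a block. For other settings they are not given, and a change in count there may reflect calls over all genes. The 75th percentile itself lay lower on the arrays with curcumin, except LPS+curcumin replicate 1, which lay among the LPS arrays. Relative to the spike-in probes it was -1.33, -2.23 and -2.58 (log2) with LPS+curcumin, -1.44, -1.38 and -1.17 with LPS, -2.01, -2.14 and -2.32 with curcumin and -0.95, -0.94 and -1.26 in untreated cells. LPS+curcumin replicate 2 had 1594 spots marked as outliers, against 87 to 163 on the other arrays.

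**Figure D1:**
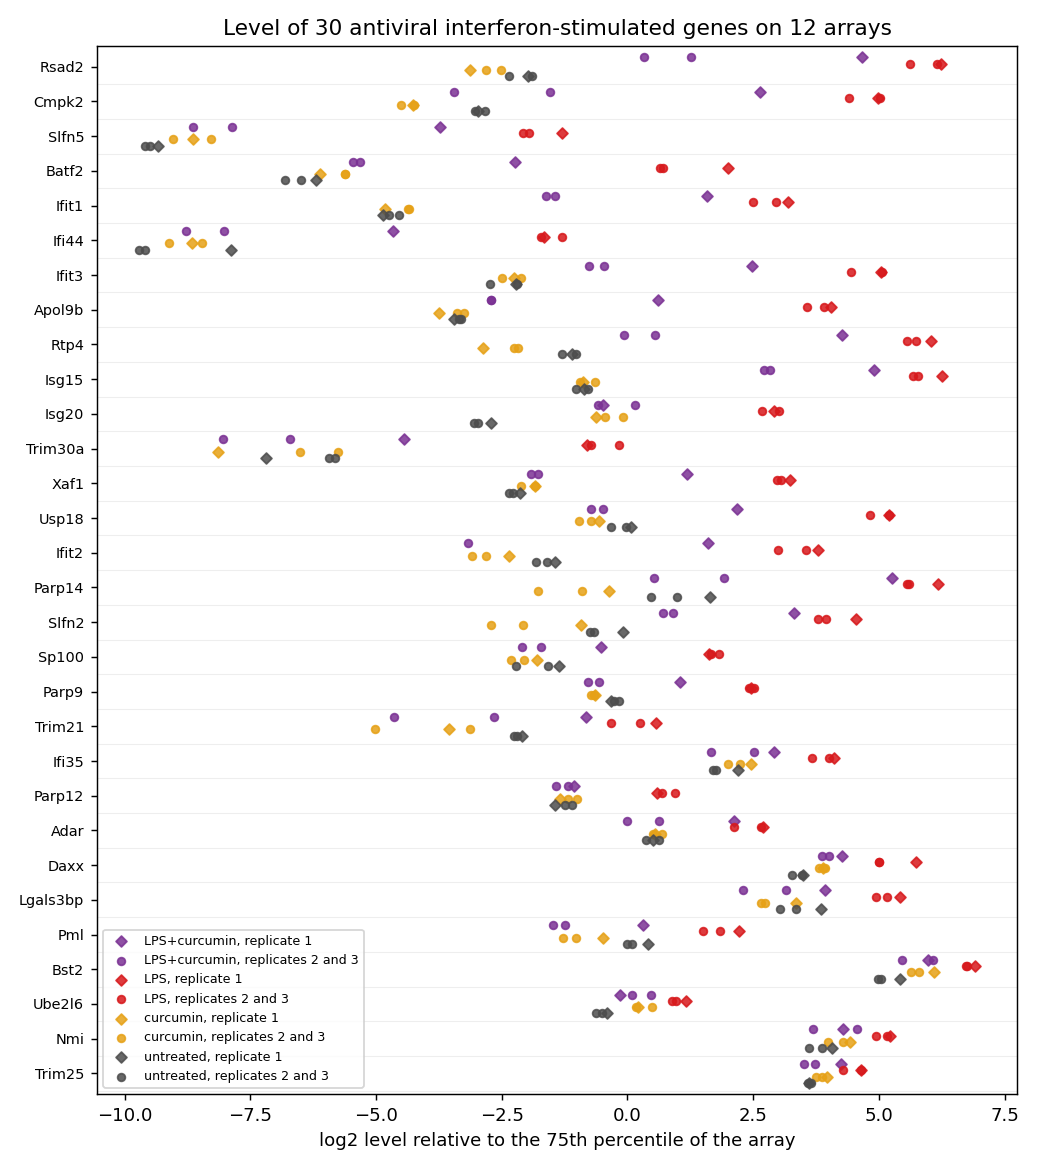
Log2 level, relative to the 75th percentile of the array, of the 30 measured genes on each of 12 arrays, ordered by their difference between LPS and untreated cells. Diamonds are replicate 1 and circles replicates 2 and 3. For Ifit1 the LPS arrays sit between 2.50 and 3.20, replicate 1 of LPS+curcumin at 1.58 and the other LPS+curcumin arrays at -1.44 and -1.61.

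Comparing LPS with untreated cells asks how strongly the antiviral programme was induced within 6 h. Of the 30 genes, 29 were called higher and none lower, where 4.12% of all genes tested were called higher. The median difference over the 30 was 4.90, with 4.88, 4.61 and 5.18 on the 3 slides, and the median over all genes tested was 0.01. The largest was Rsad2 (viperin, which makes a nucleotide that terminates viral RNA chains) at 8.08, and the smallest was Trim25 at 0.90. Trim21 was the gene not called: its difference was 2.35 ± 0.78, with an adjusted p of 0.127. The LPS arrays lay above the untreated arrays for 30 of 30 genes, as they did for 16.8% of all genes. Slfn5, Ifi44 and Trim30a passed the detection filter only through the LPS arrays, so their being high there was partly fixed beforehand. With only probes detected on all 12 arrays, 27 genes were left, each called or not called as above, with a median of 4.60. Leaving out LPS+curcumin replicate 1, which enters this comparison only through the shared estimate of spread, gave 30 called higher (6.04% of all genes), and the replicate block gave 29 (5.26%). The count was 19 with spike-in scaling, 18 with normexp background correction and 13 without slide 2, and no gene changed sign in these 3 settings. In bulk RNA, more responding cells and more RNA per cell cannot be told apart.

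Setting LPS+curcumin against LPS asks what curcumin did to that induction. All 30 measured genes were called lower, against 5.99% of all genes tested called lower. The median difference was -3.16, while the median over all genes was 0.32. On the slides it was -1.63, -3.53 and -4.17, so slide 1, which holds the array that stood apart, showed the smallest one. Among the genes well above background on all arrays of both groups, the differences ran from -0.69 for Trim25 to -5.59 for Cmpk2. The 2 groups did not overlap for any of the 30, as for 9.25% of all genes in the lower direction. These counts include Slfn5, Ifi44 and Trim30a, which passed the filter only through the LPS arrays. With only probes detected on all 12 arrays, the 27 genes left were all called lower. Without LPS+curcumin replicate 1 the median was -3.71 and again 30 were called lower (14.6% of all genes), and with the replicate block 30 (8.73%). Leaving that array out made the difference more negative for each gene except Isg20 (-3.08) and Ube2l6 (-0.72), and gave -7.30 for Cmpk2. Only 10 were called lower with normexp background correction, 14 when those 2 groups were fitted alone, 3 without slide 3 and 0 without slide 2, and the differences stayed negative for all 30 in these settings. Both this comparison and the one with untreated cells use the same LPS arrays.

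**Figure D2:**
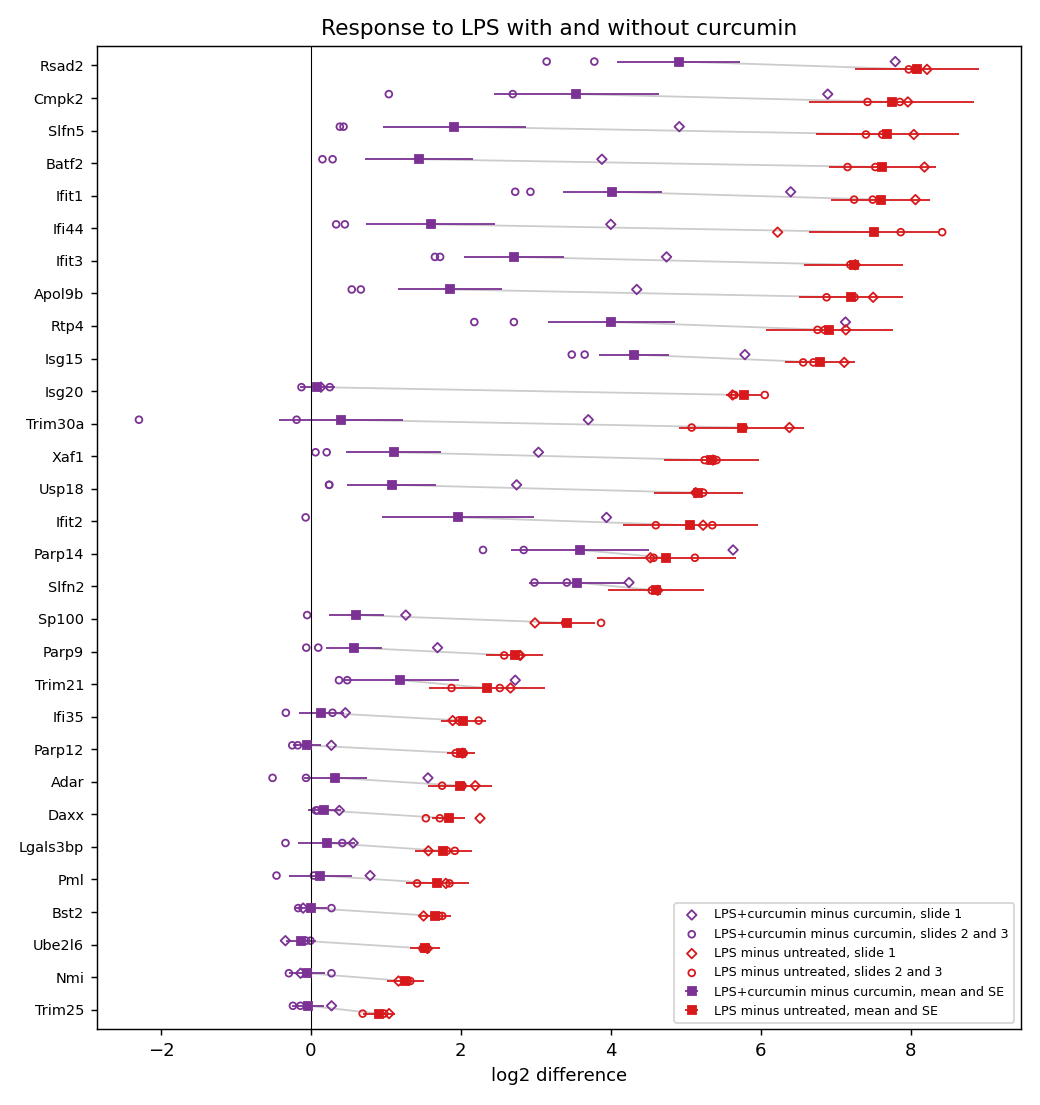
Log2 difference of LPS+curcumin minus curcumin (purple) and of LPS minus untreated (red) for the 30 genes, with squares for the mean, bars for the SE and open symbols for the slides (diamonds, slide 1). The median was 1.09 with curcumin present and 4.90 without it, and the slide 1 value of LPS+curcumin minus curcumin lies to the right of the other slides for most genes with a large response.

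The IFIT proteins bind foreign RNA and block its translation; Ifit1 recognises RNA whose cap lacks methylation. Ifit1 had levels of 1.58, -1.44 and -1.61 on the LPS+curcumin arrays, 3.20, 2.50 and 2.96 on the LPS arrays, -4.82, -4.37 and -4.34 on the curcumin arrays and -4.86, -4.74 and -4.53 on the untreated arrays. Ifit3, which in human cells stabilises IFIT1, had levels of 2.49, -0.77 and -0.46 on the LPS+curcumin arrays, 5.04, 4.45 and 5.06 on the LPS arrays, -2.26, -2.49 and -2.12 on the curcumin arrays and -2.22, -2.74 and -2.20 on the untreated arrays. For both, the LPS arrays were the highest, the curcumin and untreated arrays lay together, and the LPS+curcumin arrays lay between, with replicate 1 nearest to LPS. Ifit1 was 194-fold higher in LPS than in untreated cells (7.60 ± 0.66, adjusted p = 5.76e-05 in limma) and 10.4-fold lower in LPS+curcumin than in LPS cells (-3.38 ± 0.66, adjusted p = 0.00817; without replicate 1 -4.41). Ifit3 was 151-fold higher with LPS (7.24 ± 0.66) and fell by 4.43 on the log2 scale in LPS+curcumin, against LPS alone (slides -2.55, -5.22 and -5.52). Ifit2, an RNA-binding partner of the others, had 1.59 and -3.17 on LPS+curcumin replicates 1 and 3, its spot on replicate 2 being dropped as an outlier, against 3.79, 3.00 and 3.55 on LPS arrays, -2.35, -2.80 and -3.10 on curcumin arrays and -1.44, -1.60 and -1.81 on untreated arrays. Its 2 LPS+curcumin values thus stood on either side of the curcumin and untreated levels. Ifit2 was called higher with LPS (5.06 ± 0.91) and lower in LPS+curcumin than in LPS cells (-4.23 ± 1.01, n = 2 against 3 arrays, adjusted p = 0.0212 in limma).

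The Isg15 system attaches the ubiquitin-like protein Isg15 to other proteins through the conjugating enzyme Ube2l6 and ligases such as Herc6, and Usp18 removes it again. All 4 measured genes of this group were called higher with LPS and lower in LPS+curcumin than in LPS cells. Isg15 had levels of 4.90, 2.71 and 2.84 on the LPS+curcumin arrays, 6.26, 5.69 and 5.78 on the LPS arrays, -0.89, -0.94 and -0.64 on the curcumin arrays and -0.86, -1.02 and -0.79 on the untreated arrays. Even its lowest LPS+curcumin value stood well above the curcumin and untreated arrays. The Isg15 difference was 6.79 ± 0.47 for LPS over untreated (111-fold) and -2.42 ± 0.47 for LPS+curcumin over LPS (slides -1.36, -2.98 and -2.94; -3.13 without replicate 1). Usp18, which also restrains the interferon receptor, had levels of 2.17, -0.73 and -0.48 on the LPS+curcumin arrays, 5.20, 4.82 and 5.20 on the LPS arrays, -0.57, -0.97 and -0.72 on the curcumin arrays and 0.07, -0.33 and -0.03 on the untreated arrays. Of its LPS+curcumin arrays, replicate 2 lay among the curcumin arrays and replicate 3 just above them, while replicate 1 lay midway to LPS. Usp18 was 36-fold higher with LPS and 26.9-fold lower in LPS+curcumin than in LPS cells (-4.75 ± 0.59, adjusted p = 0.00124 in limma). Ube2l6 differed from these, with -0.14, 0.10 and 0.48 on the LPS+curcumin arrays, 1.16, 0.98 and 0.89 on the LPS arrays, 0.20, 0.17 and 0.48 on the curcumin arrays and -0.40, -0.51 and -0.63 on the untreated arrays: the LPS+curcumin and curcumin arrays overlapped, between the LPS arrays above and the untreated arrays below. Its differences were 1.52 for LPS over untreated and -0.86 for LPS+curcumin over LPS, and on slide 1 LPS+curcumin against LPS gave -1.29. Trim25, a ubiquitin ligase acting on the sensor RIG-I, was well above background on all 12 arrays, at 4.25, 3.73 and 3.51 on the LPS+curcumin arrays, 4.65, 4.29 and 4.64 on the LPS arrays, 3.98, 3.87 and 3.75 on the curcumin arrays and 3.60, 3.60 and 3.66 on the untreated arrays. Its changes were the smallest of the 30, 0.90 ± 0.21 with LPS (adjusted p = 0.0304 in limma) and -0.69 ± 0.21 for LPS+curcumin against LPS (adjusted p = 0.0439), and its second probe gave 1.41 and -1.25.

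Among the nucleotide and RNA enzymes, all 6 measured genes were called higher with LPS and lower in LPS+curcumin than in LPS cells. Rsad2 had levels of 4.66, 1.27 and 0.34 on the LPS+curcumin arrays, 6.24, 5.62 and 6.15 on the LPS arrays, -3.14, -2.51 and -2.81 on the curcumin arrays and -1.98, -2.35 and -1.90 on the untreated arrays. Cmpk2, the mitochondrial nucleotide kinase encoded beside Rsad2, had 2.63, -1.55 and -3.46 on the LPS+curcumin arrays, 4.99, 4.40 and 5.02 on the LPS arrays, -4.27, -4.24 and -4.50 on the curcumin arrays and -2.97, -3.03 and -2.84 on the untreated arrays. In both genes the LPS+curcumin arrays were spread over several log2 units, replicate 1 nearest to the LPS arrays but below them and replicate 3 lowest. Rsad2 was 271-fold higher in LPS than in untreated cells and 15.1-fold lower in LPS+curcumin than in LPS cells (-3.91 ± 0.82, slides -1.58, -4.35 and -5.81). Cmpk2 was 215-fold higher with LPS and fell by 5.59 on the log2 scale in LPS+curcumin, against LPS (slides -2.36, -5.94 and -8.47). Isg20, an exonuclease that degrades RNA, had -0.48, -0.58 and 0.16 on the LPS+curcumin arrays, 2.91, 3.01 and 2.67 on the LPS arrays, -0.62, -0.45 and -0.09 on the curcumin arrays and -2.71, -3.04 and -2.97 on the untreated arrays. Here the 3 LPS+curcumin arrays kept together among the curcumin arrays, replicate 1 included, and both groups stood clear of the untreated arrays. Its differences were 5.78 ± 0.24 for LPS over untreated and -3.17 ± 0.24 for LPS+curcumin over LPS (slides -3.39, -3.59 and -2.52, adjusted p = 1.39e-04 in limma). Adar, which edits adenosine to inosine in double-stranded RNA, had 2.12, 0.62 and -0.01 on the LPS+curcumin arrays, 2.70, 2.12 and 2.65 on the LPS arrays, 0.55, 0.69 and 0.50 on the curcumin arrays and 0.51, 0.38 and 0.63 on the untreated arrays, so that replicate 1 of LPS+curcumin lay just below the lowest LPS array. Slfn2, a Schlafen protein needed for quiescence of mouse T cells, had 3.31, 0.90 and 0.70 on the LPS+curcumin arrays, 4.55, 3.95 and 3.79 on the LPS arrays, -0.93, -2.08 and -2.71 on the curcumin arrays and -0.08, -0.67 and -0.75 on the untreated arrays. Adar was called higher with LPS (1.99 ± 0.42) and lower in LPS+curcumin than in LPS cells (-1.58 ± 0.42), and so was Slfn2 (4.60 ± 0.64 and -2.46 ± 0.64). Slfn5, another Schlafen gene, was well above background on 1 of 3 LPS+curcumin arrays (replicate 1, -3.72), on all 3 LPS arrays (-1.30, -2.08 and -1.96) and on no curcumin or untreated array. It was at least 48.9-fold higher in LPS than in untreated cells, taking the lowest signal well above background as the untreated level, and was called lower in LPS+curcumin than in LPS cells (adjusted p = 0.00748 in limma). That lower limit holds for the main processing only. Over the alternatives the log2 difference of Slfn5 between LPS and untreated cells ran from 2.44 to 7.84.

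Bst2 (tetherin), which holds budding virions at the cell surface, had levels of 5.99, 5.47 and 6.07 on the LPS+curcumin arrays, 6.92, 6.73 and 6.75 on the LPS arrays, 6.09, 5.64 and 5.80 on the curcumin arrays and 5.42, 4.98 and 5.04 on the untreated arrays. Its LPS arrays were the highest and its untreated arrays the lowest, with the LPS+curcumin and curcumin arrays overlapping between them. Bst2 was 3.15-fold higher with LPS and 1.94-fold lower in LPS+curcumin than in LPS cells (slides -0.94, -1.26 and -0.68). Rtp4, a receptor chaperone, had 4.27, 0.54 and -0.07 on the LPS+curcumin arrays, 6.04, 5.75 and 5.56 on the LPS arrays, -2.86, -2.17 and -2.25 on the curcumin arrays and -1.09, -1.01 and -1.30 on the untreated arrays. Its 3 LPS+curcumin arrays all lay between the curcumin arrays and the LPS arrays. Rtp4 was 121-fold higher with LPS, and in LPS+curcumin it fell by 4.20 on the log2 scale, against LPS (without replicate 1, -5.55).

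ADP-ribosyltransferases mark proteins and RNA, and Parp9 (the partner of Dtx3l), Parp12 and Parp14 were called higher with LPS and lower in LPS+curcumin than in LPS cells. Parp12, which restricts alphaviruses, had -1.06, -1.43 and -1.19 on the LPS+curcumin arrays, 0.59, 0.68 and 0.94 on the LPS arrays, -1.33, -1.18 and -1.01 on the curcumin arrays and -1.44, -1.25 and -1.10 on the untreated arrays. Its LPS+curcumin, curcumin and untreated arrays all lay between -1.44 and -1.01, and the LPS arrays stood apart above them. Parp12 rose with LPS by 2.0 ± 0.19 and was lower in LPS+curcumin than in LPS cells (-1.96 ± 0.19, slides -1.65, -2.11 and -2.13). Parp14, a macrodomain protein, had 5.27, 1.93 and 0.53 on the LPS+curcumin arrays, 6.17, 5.56 and 5.59 on the LPS arrays, -0.37, -0.91 and -1.77 on the curcumin arrays and 1.64, 0.99 and 0.47 on the untreated arrays, with a spread of several log2 units among LPS+curcumin arrays. Its called differences were 4.74 ± 0.92 and -3.20 ± 0.92, and of the other 2 probes of Parp14 neither was called for LPS+curcumin against LPS (adjusted p = 0.0772 and 0.109 in limma). Parp9 had 1.04, -0.56 and -0.78 on the LPS+curcumin arrays, 2.46, 2.42 and 2.52 on the LPS arrays, -0.65, -0.66 and -0.72 on the curcumin arrays and -0.33, -0.16 and -0.26 on the untreated arrays, with differences of 2.72 and -2.57.

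TRIM ligases and PML nuclear bodies restrain incoming viral genomes and shape signalling, and 4 of the 5 measured genes of this group were called higher with LPS, and all 5 lower in LPS+curcumin than in LPS cells. Sp100, a resident of the bodies, had -0.52, -1.72 and -2.10 on the LPS+curcumin arrays, 1.62, 1.81 and 1.66 on the LPS arrays, -1.79, -2.32 and -2.05 on the curcumin arrays and -1.36, -1.58 and -2.21 on the untreated arrays. Daxx, a histone chaperone of the bodies, had 4.27, 3.87 and 4.01 on the LPS+curcumin arrays, 5.74, 4.99 and 5.01 on the LPS arrays, 3.89, 3.80 and 3.92 on the curcumin arrays and 3.48, 3.27 and 3.48 on the untreated arrays. In Sp100 replicate 1 of LPS+curcumin stood between the LPS and curcumin arrays, and in Daxx the LPS+curcumin arrays lay at or slightly above the curcumin arrays. Sp100 differed by 3.42 ± 0.37 between LPS and untreated cells and by -3.15 ± 0.37 between LPS+curcumin and LPS cells, and Daxx by 1.84 ± 0.22 and -1.20 ± 0.22. Pml, the scaffold of the bodies, had 0.31, -1.48 and -1.23 on the LPS+curcumin arrays, 2.22, 1.51 and 1.83 on the LPS arrays, -0.48, -1.02 and -1.27 on the curcumin arrays and 0.42, 0.09 and -0.02 on the untreated arrays. Its rise with LPS (1.69 ± 0.42) was called with an adjusted p of 0.039 in limma, while its second probe gave 1.52 with an adjusted p of 0.0752, and both probes were called lower in LPS+curcumin than in LPS cells (-2.65 and -2.63). Trim30a, which in mouse restrains Toll-like receptor signalling, was well above background on 1 of 3 LPS+curcumin arrays, all 3 LPS arrays, 2 of 3 curcumin and 2 of 3 untreated arrays, and had -4.44, -6.70 and -8.05 on the LPS+curcumin arrays, -0.80, -0.73 and -0.16 on the LPS arrays, -8.14, -6.51 and -5.76 on the curcumin arrays and -7.19, -5.81 and -5.94 on the untreated arrays. As a group only the LPS arrays stood clear of the others. The fitted differences, 5.74 ± 0.83 and -5.83 ± 0.83, rest in part on these dim spots, and their sizes are uncertain. Trim21, the cytosolic antibody receptor, had -0.83, -2.65 and -4.64 on the LPS+curcumin arrays, 0.56, -0.32 and 0.26 on the LPS arrays, -3.55, -3.14 and -5.01 on the curcumin arrays and -2.10, -2.20 and -2.26 on the untreated arrays. Its curcumin arrays were more scattered than its untreated arrays, and its difference between LPS+curcumin and LPS cells was -2.87 ± 0.78 (adjusted p = 0.0292 in limma).

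The remaining 7 genes were all called higher with LPS and all lower in LPS+curcumin than in LPS cells. Batf2, a basic leucine zipper factor, had -2.23, -5.45 and -5.32 on the LPS+curcumin arrays, 1.99, 0.66 and 0.72 on the LPS arrays, -6.11, -5.61 and -5.61 on the curcumin arrays and -6.19, -6.50 and -6.81 on the untreated arrays. Apol9b, an apolipoprotein L family member, had 0.61, -2.70 and -2.71 on the LPS+curcumin arrays, 4.06, 3.91 and 3.58 on the LPS arrays, -3.74, -3.25 and -3.38 on the curcumin arrays and -3.44, -3.35 and -3.30 on the untreated arrays. With LPS, Batf2 was 197-fold and Apol9b 148-fold higher, and in LPS+curcumin their replicates 2 and 3 came close to the curcumin arrays while replicate 1 lay midway to the LPS arrays. Xaf1, which promotes apoptosis, had 1.19, -1.91 and -1.78 on the LPS+curcumin arrays, 3.24, 2.97 and 3.05 on the LPS arrays, -1.84, -2.12 and -1.84 on the curcumin arrays and -2.13, -2.28 and -2.36 on the untreated arrays. Ifi44 was well above background on 1 of 3 LPS+curcumin arrays (replicate 1), on all 3 LPS arrays (-1.66, -1.71 and -1.30) and on no curcumin or untreated array, and was at least 57.3-fold higher in LPS than in untreated cells. That lower limit, too, holds for the main processing only. Over the alternatives the log2 difference of Ifi44 between LPS and untreated cells ran from 2.71 to 8.14. Xaf1 differed by 5.34 ± 0.63 between LPS and untreated cells and by -3.92 ± 0.63 between LPS+curcumin and LPS cells, with -2.05, -4.88 and -4.83 on the slides. Nmi and Ifi35, partner proteins that bind each other, and Lgals3bp, a secreted galectin-binding glycoprotein, were expressed in every group and changed less. Nmi had 4.28, 3.69 and 4.57 on the LPS+curcumin arrays, 5.23, 5.16 and 4.94 on the LPS arrays, 4.42, 3.98 and 4.29 on the curcumin arrays and 4.06, 3.87 and 3.61 on the untreated arrays. Ifi35 had 2.92, 1.66 and 2.52 on the LPS+curcumin arrays, 4.10, 4.0 and 3.67 on the LPS arrays, 2.46, 2.0 and 2.23 on the curcumin arrays and 2.21, 1.76 and 1.71 on the untreated arrays. Lgals3bp had 3.92, 2.31 and 3.16 on the LPS+curcumin arrays, 5.41, 5.16 and 4.95 on the LPS arrays, 3.36, 2.65 and 2.74 on the curcumin arrays and 3.85, 3.34 and 3.03 on the untreated arrays. For these 3 the LPS arrays were the highest and the other groups overlapped, with differences of 1.26, 2.03 and 1.77 between LPS and untreated cells and -0.93, -1.56 and -2.04 between LPS+curcumin and LPS cells.

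LPS+curcumin against curcumin asks how much of the induction was left when both groups had curcumin. Isg15, Ifit1 and Rsad2 were called higher, 3 of the 30, against 0.202% of all genes tested. Their differences were 4.31 ± 0.47 (adjusted p = 0.00294), 4.02 ± 0.66 (adjusted p = 0.042) and 4.91 ± 0.82 (adjusted p = 0.0464) in limma. The median of the 30 was 1.09 with all arrays and 0.15 without LPS+curcumin replicate 1, and its values on the slides were 2.89, 0.21 and 0.28. With Slfn5 and Ifi44, not well above background on any curcumin array, set to 0, it was 0.59. Without replicate 1, 6 genes were called higher (0.327% of all genes), Ifit1, Ifit3, Isg15, Rsad2, Slfn2 and Rtp4, at 2.98, 1.67, 3.60, 3.62, 2.71 and 2.66. With the replicate block 4 were called, Slfn2 being added (adjusted p = 0.00622 in limma; 0.321% of all genes). The count was 1 with median, quantile or spike-in scaling, the percentile of always detected probes, normexp background correction or no filter, and 0 when those 2 groups were fitted alone or without slide 2 or slide 3. Of 29 alternatives, Isg15 kept its call in 26, Ifit1 in 10 and Rsad2 in 9. The arrays did not overlap, LPS+curcumin being higher, for 10 genes (3.16% of all genes): those 6 and Cmpk2, Parp14, Batf2 and Apol9b.

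How far each LPS+curcumin array had come down from the LPS level to the curcumin level was expressed as a percentage of the distance between the mean LPS and mean curcumin log2 levels, as a description with no test. The median over genes was 43.8% on replicate 1, 98.4% on replicate 2 and 89.8% on replicate 3. Isg15 had 14.9%, 47.5% and 45.6% of that distance gone on replicates 1, 2 and 3, and Rsad2 15.2%, 53.6% and 64.2%. Xaf1 had 37.8%, 99.5% and 96.9%, and Usp18 49.7%, 99.5% and 95.3%. On the 2 replicates that resembled each other, 7 (Ifit1, Ifit3, Isg15, Rsad2, Slfn2, Rtp4 and Parp14) kept more than 1 log2 unit above the curcumin mean on both, and 21 kept less than 1 on both (Ifit2 on replicate 3, its only one of the 2), limits set after the values were seen. For 4 of the 21 (Ube2l6, Trim25, Bst2 and Nmi) the LPS mean itself lay less than 1 above the curcumin mean, which leaves 17 that could have kept more. On replicate 1, 19 genes had under 50% of the distance gone, while Isg20, Ube2l6, Parp12 and Nmi had over 90% gone (103%, 106% and 83.3% for Isg20 on the 3 replicates and 94.1%, 113% and 101% for Parp12). The genes with an ISRE core match in their promoter window had a median difference between LPS and untreated cells of 7.21 (9 measured genes, 1.65 to 8.08), and those with a window but no match 2.01 (16 genes, 0.90 to 7.75). For LPS+curcumin against curcumin these medians were 1.91 and 0.20. The ranges overlapped, and no test was made.

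**Figure D3:**
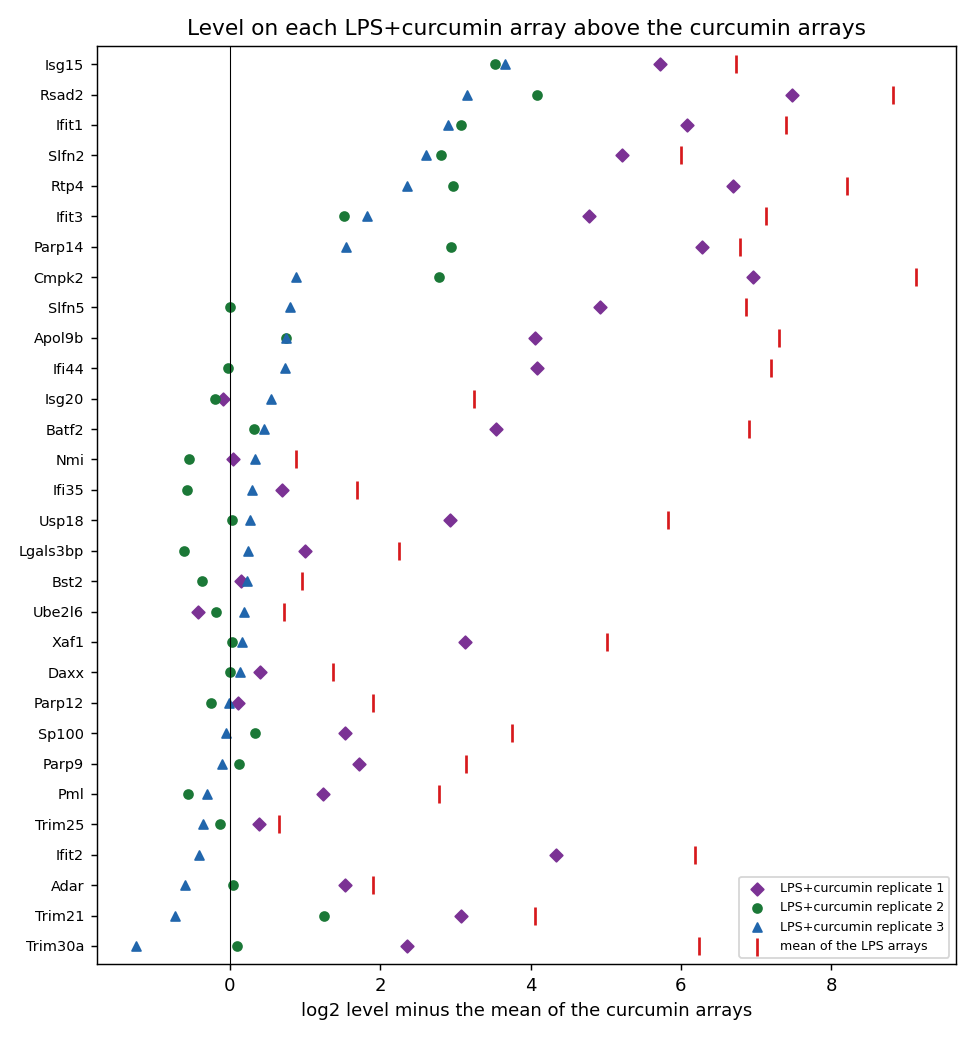
Log2 level of each gene on the 3 LPS+curcumin arrays (diamonds, circles and triangles for replicates 1, 2 and 3) minus its mean on the curcumin arrays, with the mean of the LPS arrays as a red bar, ordered by replicate 3. Isg15, Rsad2 and Ifit1 stay well above 0 on every array (for Isg15, 5.73, 3.53 and 3.66), while Parp12 is at 0.11, -0.25 and -0.01.

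Curcumin alone against untreated cells asks whether curcumin moved the genes without LPS. Isg20, Ube2l6 and Bst2 were called higher, 3 of 30, where 21.9% of all genes were called higher, and none was called lower, where 7.28% were, so neither count exceeds its background. The median of the 30 was 0.07, below the median of all genes of 0.41. Isg20 had -0.62, -0.45 and -0.09 on curcumin arrays and -2.71, -3.04 and -2.97 on untreated arrays, a 5.75-fold difference (2.52 ± 0.24, slides 2.10, 2.59 and 2.88, adjusted p = 2.58e-04 in limma). Ube2l6 (0.80 ± 0.20, adjusted p = 0.0153) and Bst2 (0.70 ± 0.22, adjusted p = 0.037) changed by under 1 log2 unit, and their sign depended on the scaling: they were -0.04 and -0.14 with median scaling and -0.31 and -0.41 with spike-in scaling. Isg20 kept its sign and its call in both, and lost the call without slide 2 (2.49). The largest negative differences, none called, were Parp14 at -2.05 ± 0.92 (adjusted p = 0.105), Trim21 at -1.71 ± 0.78 and Slfn2 at -1.40 ± 0.64. The dimmer probes of Parp14 gave -1.13 and 0.14, neither called, so its value rests on the brightest probe. Without LPS+curcumin replicate 1 in the fit, 4 were called higher (37% of all genes) and 10 lower (12.5%), the 10 being Ifit2, Usp18, Rsad2, Cmpk2, Slfn2, Rtp4, Parp9, Parp14, Trim21 and Pml. With the replicate block 3 were called higher (31.2%) and 3 lower (10.8%), Slfn2, Parp14 and Pml. The arrays did not overlap for 8 genes that were higher with curcumin (47.5% of all genes) and 10 that were lower (17.9%). The median of all genes was 0.41 as given above, -0.42 with median scaling, -0.01 with quantile scaling and -0.69 with spike-in scaling, and the median of the 30 lay below it in each, at -0.77, -0.48 and -1.03. For Adar the 2 probes disagreed, at 0.08 for the brighter and -1.02, called lower, for the other. The probes of Trim25 (0.25 and -0.47) and Sp100 (-0.34 and 0.12) also differed in sign, none of them called.

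**Figure D4:**
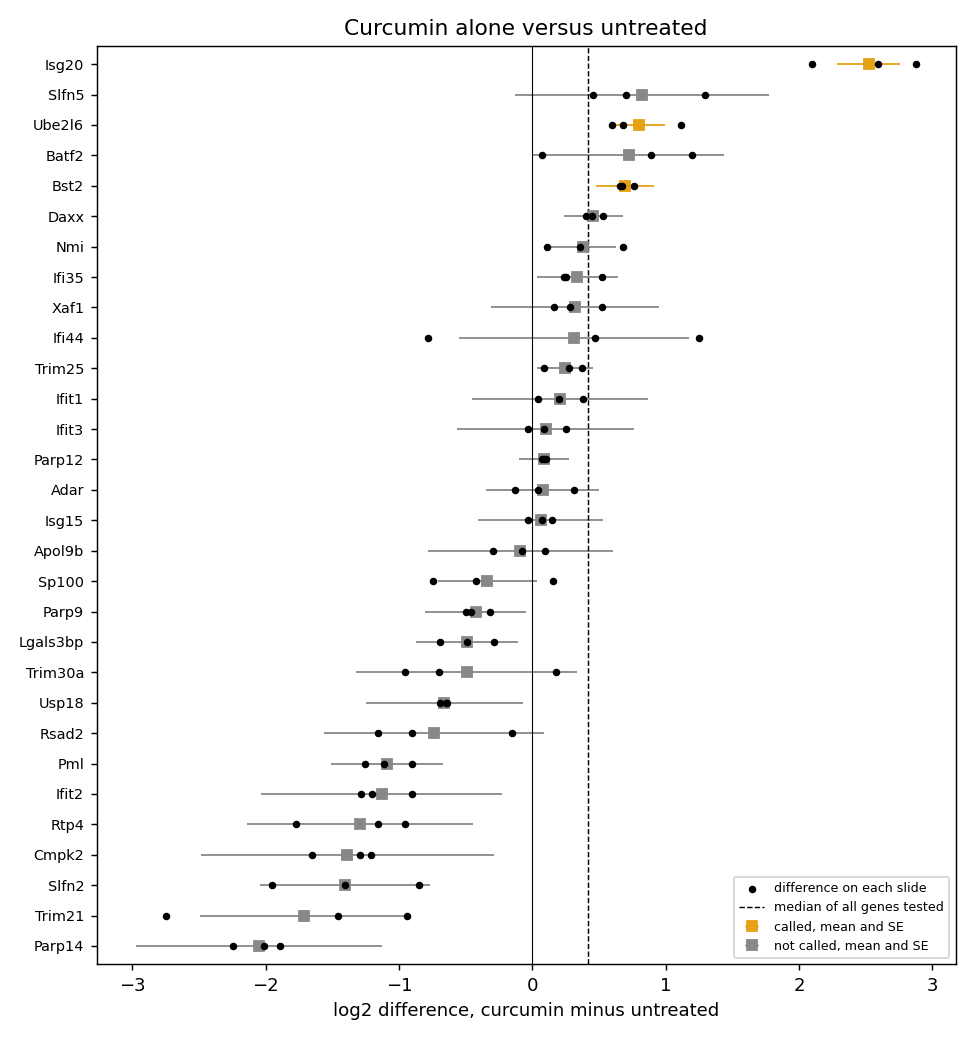
Log2 difference of curcumin minus untreated for the 30 genes, with squares for the mean, bars for the SE, black points for the 3 slides and a dashed line at the median of all genes tested (0.41). Isg20, at 2.52, is set apart from the other genes, which run from -2.05 to 0.82.

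Whether curcumin acted differently with LPS than without it is the interaction, the difference between LPS+curcumin and LPS minus that between curcumin and untreated. It was called lower for 8 of the 30 genes, against 0.709% of all genes tested, and its median was -2.65. The 8 were Batf2, Isg20, Apol9b, Sp100, Parp12, Daxx, Ube2l6 and Bst2. Isg20 had -5.69 ± 0.33 (slides -5.49, -6.18 and -5.40, adjusted p = 4.86e-05 in limma) and Parp12 -2.05 ± 0.27 (adjusted p = 0.00423). It was negative on every slide with a value for 28 of 30 genes, the exceptions being Parp14 and Trim21, with 1.1 and 0.06 on slide 1. The share of all genes negative on every slide was not computed, so that count has no background to be read against. Without LPS+curcumin replicate 1 the interaction was called for 25 genes (1.99% of all genes), and with the replicate block for 13 (1.11%). With median scaling, spike-in scaling or normexp background correction 1 gene was called, Isg20.

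The upstream pathway was read from 24 named genes, of which 23 were tested. With LPS 11 were called higher and none lower, where 4.12% of all genes tested were called higher. In LPS+curcumin against LPS 9 were called lower (5.99% of all genes), 16 without LPS+curcumin replicate 1 (14.6%) and 14 with the replicate block (8.73%). With curcumin alone 2 of the 23 were called higher (21.9% of all genes) and 2 lower (7.28%), so neither count stood clear of its background. Without LPS+curcumin replicate 1 these were 3 (37%) and 6 (12.5%), and with the replicate block 2 (31.2%) and 5 (10.8%). Ifnb1, interferon beta, had -3.47, -4.93 and -2.98 on the LPS+curcumin arrays, -0.76, -2.81 and -2.91 on the LPS arrays, -4.93, -5.54 and -4.86 on the curcumin arrays and -8.76, -8.54 and -6.99 on the untreated arrays, the untreated level being well above background on 1 of 3 arrays. It was called higher with LPS (5.94 ± 0.67) and with curcumin alone (2.99 ± 0.67, adjusted p = 0.00969), sizes that are uncertain for the dim untreated spots, and LPS+curcumin against LPS gave -1.63 ± 0.67 (adjusted p = 0.106 in limma, not called; slides -2.72, -2.11 and -0.06). Its LPS+curcumin and LPS arrays overlapped. Ifna2, an interferon alpha, had -4.79, -1.34 and -0.61 on the LPS+curcumin arrays, -5.62, -5.20 and -5.66 on the LPS arrays, -1.09, -1.11 and -0.63 on the curcumin arrays and -5.15, -6.03 and -5.60 on the untreated arrays, and was called higher with curcumin alone (4.65 ± 0.81) and in LPS+curcumin against LPS (3.25 ± 0.81; 4.52 without replicate 1). On this gene replicate 1 of LPS+curcumin lay near the LPS arrays and replicates 2 and 3 near the curcumin arrays. Of the receptor and its kinases, Tyk2 was called higher with LPS (1.41 ± 0.36) and lower in LPS+curcumin than in LPS cells (-1.23 ± 0.36), and Ifnar2 and Jak1 were called in neither. Ifnar1 was not called with LPS, and for LPS+curcumin against LPS it gave -1.33 ± 0.48 (adjusted p = 0.0749), called lower without replicate 1 (-1.96, adjusted p = 7.22e-04) and with the replicate block (adjusted p = 0.0219 in limma). The 4 transcription factors Stat2, Irf9, Irf7 and Irf1 were all called higher with LPS, and 3 were called lower in LPS+curcumin than in LPS cells. Irf7, which amplifies interferon production, had 0.71, -1.60 and -1.32 on the LPS+curcumin arrays, 3.56, 3.07 and 3.43 on the LPS arrays, -1.30, -1.32 and -1.35 on the curcumin arrays and -1.78, -1.83 and -1.87 on the untreated arrays, with differences of 5.18 ± 0.47 with LPS and -4.09 ± 0.47 for LPS+curcumin against LPS, and was the one pathway gene called for the interaction with all arrays (-4.59 ± 0.66; 0.709% of all genes). Without replicate 1 the interaction was called for 7 pathway genes (1.99% of all genes), Ikbke, Ifnb1, Tyk2, Stat2, Irf9, Irf7 and Socs3, and with the replicate block for 2, Irf7 and Ifnb1 (1.11%). Stat2 gave 3.00 ± 0.61 and -2.40 ± 0.61, and Irf9 2.63 ± 0.60 and -2.20 ± 0.60. Irf1 rose with LPS (2.81 ± 0.63) and gave -1.78 ± 0.63 for LPS+curcumin against LPS (adjusted p = 0.0691 in limma), which was called lower without replicate 1 (-2.55) and with the block. Tlr4 was called lower with curcumin alone (-2.25 ± 0.42), as was its adaptor Ticam2 (-1.50 ± 0.38), and the kinase gene Ikbke rose with LPS (3.20 ± 0.76) and was lower in LPS+curcumin than in LPS cells (-3.14 ± 0.76). Among feedback genes Socs3 was called in both (3.53 ± 0.53 and -3.05 ± 0.53), and Socs1 with LPS (3.42 ± 0.85); for LPS+curcumin against LPS Socs1 gave -2.63 ± 0.85, called lower without replicate 1 (-3.63) and with the block. Cd14, the LPS co-receptor, was called higher with LPS (1.99 ± 0.42) and lower in LPS+curcumin than in LPS cells (-1.54 ± 0.42). Ticam1 was called higher with LPS (1.0 ± 0.26), and the phosphatase gene Ptpn6 was called lower in LPS+curcumin than in LPS cells (-1.32 ± 0.32), as was Ticam2 (-1.24 ± 0.38, well above background on 1 of 3 LPS+curcumin arrays). With all arrays Ly96, Tbk1, Irf3, Traf3 and Ptpn2 were called in neither of these comparisons, and Ifna4 was not tested.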

How the data were processed

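RNA of the 12 BV2 samples was hybridised to one-colour Agilent mouse arrays. Per the file headers, the authors' deposited scanner files hold the background-subtracted processed signal, an intensity per spot, extracted with Agilent Feature Extraction 10.5.1.1, while the submitters' processing notes name version 9.1. Here log2 of that intensity minus the 75th percentile of the array was used, control and outlier spots left out and spots of a probe averaged. Each gene was represented by its brightest probe, and 10 of the 30 measured genes had more than 1 probe. A probe was kept where some group had it well above background on each of its 3 arrays, and limma 3.58.1 in R 4.3.3 fitted the 4 group means over 12 arrays, with two-sided tests and Benjamini-Hochberg adjustment over all 19318 genes and transcripts. An adjusted p below 0.05 was called. Probe accessions were named through RefSeq. Near-identical family members (Ifit3, Apol9b, Trim30a and the Schlafen genes have close relatives in mouse) may share probe signal, which was not tested.

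The genes and lists were chosen with earlier results of these data known, and 1 further gene first chosen for the upstream pathway list is not reported here. By the rule for named genes, per-array values are given for the called members with the largest and smallest changes in each comparison and for a preset list of members, which together took in nearly all of the 30, and the few others are given too. Slide equals replicate number, and position on the slide and group cannot be told apart. Deviations of arrays with the same number correlated from -0.02 to 0.71 (median 0.24, 16 of 18 pairs above 0.1), and those of arrays with different numbers had a median of -0.18 (10 of 36 above 0.1). The number entered as a block in an alternative, given beside the results it changes. The normexp alternative used the median signal and median background, as the files hold no mean signal column. The fit was tested on simulated data, with changes put into the LPS group only and noise drawn independently for each array. The simulation held no slide effect and no array that stood apart, so it does not bear on those.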

Additional observations from a re-analysis of the deposited data

Results flagged for a closer look

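For 8 genes the effect of curcumin with LPS differed from its effect without LPS by the interaction term of the limma fit over all genes (0.709% of all genes were called lower). The log2 interaction was -6.18 for Batf2, -5.69 for Isg20, -5.36 for Apol9b, -2.81 for Sp100, -2.05 for Parp12, -1.66 for Daxx, -1.66 for Ube2l6 and -1.66 for Bst2. The value was negative on all 3 slides for each of the 8, as on every slide with a value for 28 of the 30 genes. Since the 8 were picked by a negative interaction over these same slides, that sign is no separate support. Of 28 alternatives the call held in 27 for Isg20, 23 for Parp12 and 17 for Batf2. It held in 12 for Ube2l6, 11 for Bst2, 10 for Sp100 and 9 each for Apol9b and Daxx. Isg20 and Parp12 differ from Batf2, Apol9b and Sp100 in how LPS+curcumin replicate 1 reads: it lies with the other LPS+curcumin arrays in Isg20 and Parp12, and between LPS and curcumin in Batf2, Apol9b and Sp100. Part of the interaction of Isg20, Ube2l6 and Bst2 is their higher level with curcumin alone (2.52, 0.80 and 0.70), of which the last 2 turn sign with median or spike-in scaling. The causes were not tested.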

How the results depend on the processing

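No gene changed sign in any alternative for LPS against untreated or LPS+curcumin against LPS. The counts below stand without the share of all genes called in the same setting. A change in these counts therefore cannot be told apart from a change in calls over all genes. Normexp gave 18 genes called higher for LPS against untreated (median 3.21), 10 lower for LPS+curcumin against LPS, 1 higher for curcumin against untreated, 1 higher for LPS+curcumin against curcumin and 1 lower for the interaction. Spike-in scaling gave 19 higher for LPS against untreated, 1 higher and 6 lower for curcumin against untreated (median -1.03), 1 higher for LPS+curcumin against curcumin and 1 for the interaction. Median scaling gave 1 higher and 4 lower for curcumin against untreated (median -0.77), 1 for LPS+curcumin against curcumin and 1 for the interaction. Quantile scaling gave a curcumin median of -0.48, 1 for LPS+curcumin against curcumin and 3 for the interaction. The mean of all probes gave a curcumin median of -0.10. The percentile of always detected probes gave 1 and 5, and no filter 1 and 3, for those last comparisons, and probes detected on all arrays a median of 4.60 for LPS against untreated. Fitting only the groups compared gave 5 higher and 10 lower for curcumin against untreated, 14 lower for LPS+curcumin against LPS and 0 higher for LPS+curcumin against curcumin. Array weights, whose fit stopped before convergence, gave 9 lower for curcumin, 10 higher and 3 lower for LPS+curcumin against curcumin, and 29 for the interaction. For curcumin against untreated, Ube2l6 gave -0.0401 with median and -0.31 with spike-in scaling, Bst2 -0.14, -0.41 and, with normexp, -0.0922, and Parp12 -1.02 with spike-in scaling. For LPS+curcumin against curcumin, array weights gave Pml -0.58 and Ifi35 -0.51. The replicate block gave 3 lower for curcumin and 13 for the interaction, and changed the other counts of calls by less than 1.5 times. The replicate block without LPS+curcumin replicate 1 gave 5 higher and 9 lower for curcumin, 7 for LPS+curcumin against curcumin and 28 for the interaction. Leaving out single arrays or slides gave 13 to 30 higher for LPS against untreated, 0 to 4 higher and 0 to 10 lower for curcumin (medians -0.04 to 0.09), 0 to 30 lower for LPS+curcumin against LPS (medians -3.71 to -2.33), 0 to 8 higher for LPS+curcumin against curcumin and 0 to 25 for the interaction. The lowest counts came without slide 2 (for LPS+curcumin against curcumin also without slide 3), while 0 lower for curcumin came in most of these fits. Such fits leave 2 arrays a group, and signal near background limits Slfn5, Ifi44 and Trim30a.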
